A study of Mus musculus with 8 samples.

Results

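The CCN matricellular genes were examined as 5 members, Ccn1, Ccn2, Ccn3, Ccn4 and Ccn5 (older names Cyr61, Ctgf, Nov, Wisp1 and Wisp2), among the 18193 genes measured in mouse embryonic fibroblasts. Every probe set that the platform annotation assigns to 1 of these genes alone was taken, whatever its values. That gave 10 of 45037 probe sets, namely 4 for Ccn1, 2 each for Ccn3 and Ccn4, and 1 each for Ccn2 and Ccn5. The cells were of C57BL/6 background at passage 13. Wild type cells served as controls for Stat5a/b-null cells, in which both Stat5 genes are inactivated. All were starved for 5 hours, after which growth hormone (GH), at 1 ug/ml, was present or absent for 2 hours. Each of the 4 groups, control, control with GH, null and null with GH, holds 2 arrays, numbered 2 and 3 in the labels. The labels call them biological replicates but name no embryo or culture of origin. Each p-value therefore rests on array-to-array spread that may be technical. For the same reason, a difference between the genotypes cannot be told apart from a difference between the cultures used.

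CCN proteins are secreted, cysteine-rich proteins of the extracellular matrix that signal through integrins, heparan sulfate proteoglycans and growth factors they bind, and do not themselves build the matrix. In fibroblasts they are known for roles in adhesion, wound repair, fibrosis and senescence. Ccn1 and Ccn2 are textbook targets of the co-activators YAP and TAZ with TEAD factors, and of SRF and TGF-beta signalling. Ccn4 was first described as a WNT-induced gene, and Ccn5 differs from the others in lacking the C-terminal module. GH acts through JAK2 on the transcription factors STAT5A and STAT5B.

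Values are log2 expression values from the robust multi-array average, for which 1 unit is a doubling. Replicate arrays correlated at 0.997 to 0.998 over all probe sets, and arrays of different genotype at 0.960 to 0.964. All 4 probe sets of Stat5a and Stat5b read lower in the null cells, by log2 differences of -0.69 to -3.155 without GH, both of them probe sets of Stat5b. Whether they lie in the deleted parts is not known here. The label of the cells was compared with marker lists. On every array all 11 fibroblast markers exceeded 6.097, the first quartile over genes. The markers of macrophages and leukocytes, 12 in all, each passed as lower in null cells, whether or not GH was present. The log2 of their summed level ran from 15.07 to 15.25 on control arrays and from 11.17 to 11.44 on null arrays, where 3 to 7 of the 12 lay below that quartile. Their member Cd14 also rose with GH in control cells (1.79 ± 0.11) and less so in null cells (0.61 ± 0.11). It had a negative interaction (-1.18 ± 0.15), as did Adgre1 (-0.99 ± 0.24). The Adgre1 call was lost without any 1 array other than those of control cells without GH (-1.11 to -0.86). Of the fibroblast markers, 4 were higher and 1 lower in null cells without GH and 4 were higher with GH. Without GH the matrix gene Lum was 19.9-fold higher (4.32 ± 0.10) and the receptor gene Pdgfra 13.9-fold higher (3.80 ± 0.12). The 1 lower was lost without replicate 2 of the control or of the null cells. The log2 of the summed fibroblast level was 17.27 to 17.35 on control and 17.41 to 17.51 on null arrays. Pdgfra rose with GH in control cells (0.69 ± 0.12), a call lost without replicate 3 of the control cells or replicate 2 of those with GH (adjusted p = 0.052 to 0.0638). Its interaction of -0.77 ± 0.16 was lost without replicate 2 of the control cells with GH, replicate 3 of the null cells or replicate 3 of the null cells with GH (adjusted p from 0.0549 to 0.0952).

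Markers of other cell types also moved with genotype. Of 8 endothelial markers 3 were lower in null cells in either GH state, among them Emcn (-1.79 ± 0.12 without GH). Their summed level was 9.55 to 9.63 on control and 9.33 to 9.48 on null arrays, with 4 and 5 of the 8 below the quartile. With GH 1 was higher, Cdh5 (0.28 ± 0.10), and was lost without any 1 of the 4 arrays compared. Of 8 epithelial markers Krt19 was lower (-2.36 ± 0.11) and Krt18 higher (0.58 ± 0.12) without GH, with summed levels of 10.56 to 10.66 and 10.31 to 10.45 and 2 to 3 below the quartile. Without replicate 3 of the control cells 2 epithelial markers were lower. The part of any of these markers in the genotype and GH differences of the Ccn genes was not tested. In RNA from a whole culture, fewer cells of a type and less RNA per cell cannot be told apart. All 10 Ccn probe sets of the 5 members had group means above the quartile. Ccn6, a further CCN gene on the array, was not among the members. Its group means of 5.19 to 5.54 lay below the quartile, and it was called in no comparison. Between genotypes it differed by -0.03 ± 0.13 without GH (limma adjusted p = 0.873) and -0.08 ± 0.13 with GH (adjusted p = 0.705).

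Between the genotypes the family split: Ccn2, Ccn4 and Ccn5 were lower and Ccn1 and Ccn3 were higher in null cells, with and without GH. GH lowered Ccn2 in control cells and left no called change in null cells. GH raised Ccn4 in null cells. Ccn1 was higher in null cells by all 4 of its probe sets, whereas under GH in control cells 2 of them fell and 2 rose.

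**Figure D1:**
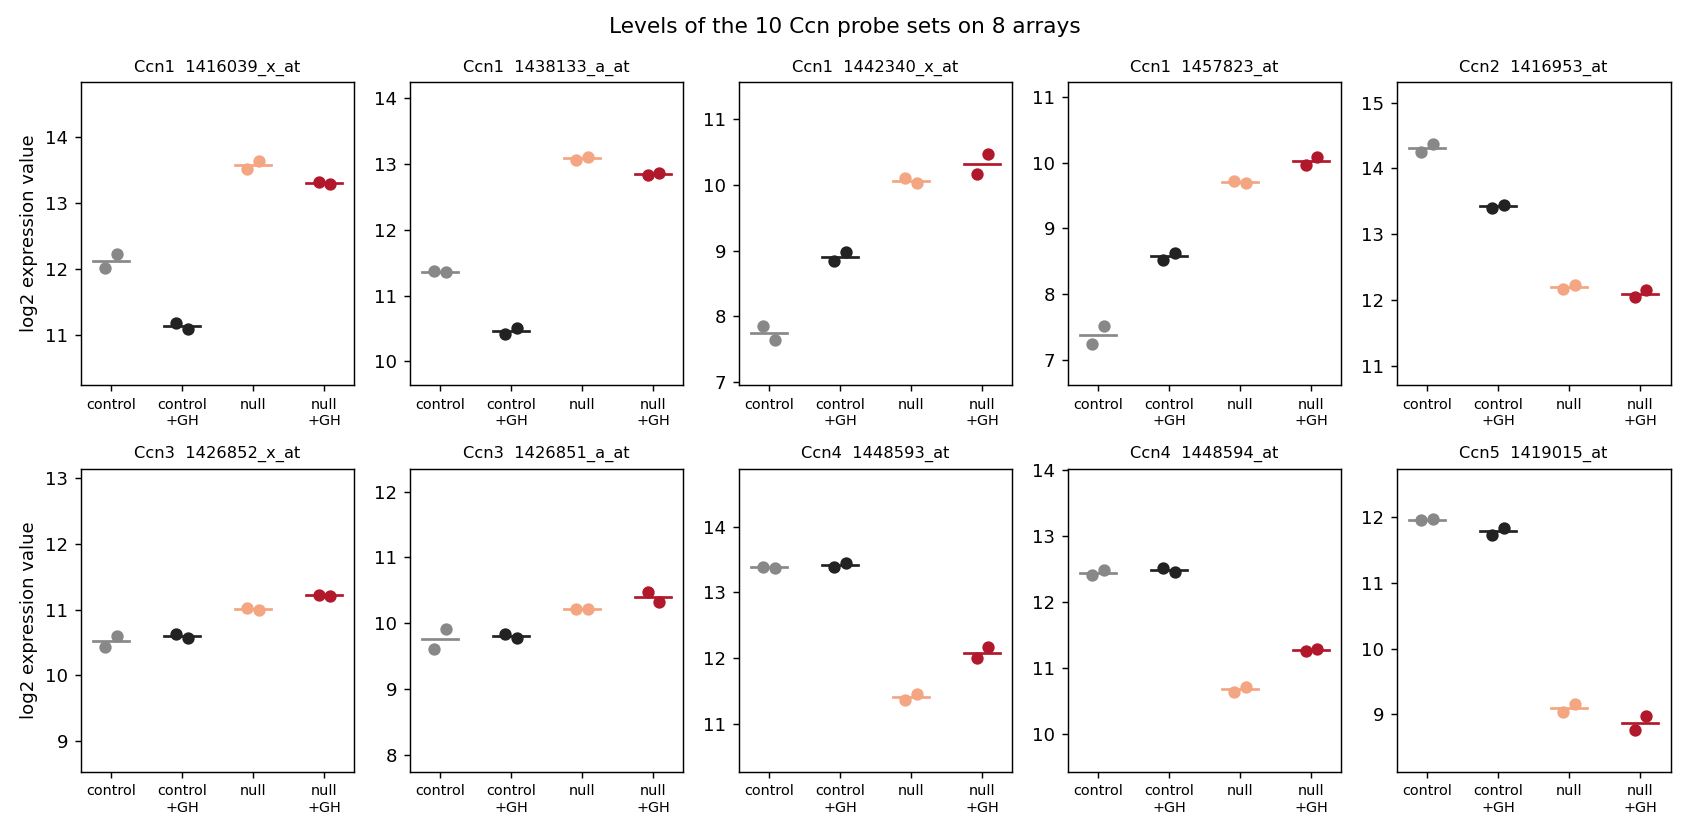
Log2 expression value (vertical axis) of each of the 10 Ccn probe sets in control and null cells without and with GH. Points are single arrays and lines are means of 2 arrays. Every panel spans the same number of log2 units but is centred on its own mean, so heights do not compare between panels. Ccn5 lies between 11.73 and 11.97 on control arrays and between 8.77 and 9.16 on null arrays, while the 4 Ccn1 panels show 2 different responses to GH in control cells.

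Ccn1 encodes CYR61, an integrin ligand that promotes adhesion and migration and whose gene is an early gene of the serum response. Its promoter is shown because the study deleted STAT5 and the lists below include targets of TEAD, SRF and SMAD factors. They also include genes that encode AP-1 factors. The 250 bases before the start of Ccn1 lie at chr3:145649986-145650235 on the minus strand of GRCm38.p6, per RefSeq. Capitals mark the only match to the TEAD motif GGAATG, read here on the opposite strand from base 103 to base 98 before the start.
Ccn1 promoter: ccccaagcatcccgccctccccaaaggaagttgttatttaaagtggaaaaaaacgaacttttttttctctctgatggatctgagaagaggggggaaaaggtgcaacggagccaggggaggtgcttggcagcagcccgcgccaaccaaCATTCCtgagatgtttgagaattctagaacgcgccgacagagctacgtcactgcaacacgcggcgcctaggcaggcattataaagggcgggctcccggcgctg
Of 32851 mouse promoters of this length, 12.6% hold GGAATG on either strand. The TATA box letters TATAAA lie 25 to 20 bases before the start, as they do somewhere in 12.4% of promoters. This window held no match on either strand to TGANTCA for AP-1 (6.75% of promoters), TTCNNNGAA for STAT factors (7.02%), CAGACA for SMADs (17.1%), TGACGTNA for CREB (2.52%) or the CArG box of SRF (1.47%). A match describes letters and not a bound site. The table used held a promoter for 1 of the 5 members.

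Probe set 1416039_x_at, which has the highest mean of the Ccn1 probe sets, read 12.02 and 12.23 on the control arrays, 11.18 and 11.08 in control cells with GH, 13.52 and 13.65 in null cells and 13.33 and 13.29 in null cells with GH. Every null array lay above every control array, and the control arrays with GH were the lowest. Ccn1 was 2.74-fold higher in null cells without GH by this probe set (log2 difference 1.46 ± 0.10 (SE), n = 2 arrays per group, limma adjusted p = 4.21e-07) and 4.52-fold higher with GH (2.18 ± 0.10, adjusted p = 1.39e-08). Probe set 1438133_a_at read 11.38 and 11.36 in control cells, 10.41 and 10.50 with GH, 13.07 and 13.11 in null cells, and 12.83 and 12.87 in null cells with GH. It showed the same order of groups, with differences of 1.72 ± 0.09 (adjusted p = 2.94e-08) without GH and 2.39 ± 0.09 (adjusted p = 1.89e-09) with GH.

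The other 2 Ccn1 probe sets, 1442340_x_at and 1457823_at, carry the same source accession in the annotation. The first read 7.85 and 7.64 in control cells, 8.84 and 8.97 with GH, 10.10 and 10.03 in null cells and 10.16 and 10.46 in null cells with GH. The second read 7.24 and 7.51, 8.52 and 8.63, 9.72 and 9.69, and 9.96 and 10.09 in the same order. Both were higher on every null array than on any control array, and both were lowest in control cells without GH. The genotype differences without GH were 2.32 ± 0.12 and 2.33 ± 0.11 (adjusted p = 2.85e-08 and adjusted p = 1.33e-08). With GH they were 1.41 ± 0.12 and 1.45 ± 0.11 (adjusted p = 2.08e-06 and adjusted p = 7.62e-07). So all 4 probe sets put Ccn1 higher in null cells. The size of the genotype difference also depended on the probe set, by limma's diffSplice, which sets a probe set against the others of its gene. Without GH 3 of 4 deviated from the others of Ccn1, where 26% of the 25762 probe sets so tested did. With GH 4 of 4 deviated, where 24% of those tested did. With GH, 1416039_x_at lost this call without replicate 3 of the control cells with GH (0.32, adjusted p = 0.197) or replicate 2 of the null cells with GH (0.33, adjusted p = 0.14). Without GH, 1442340_x_at lost it without replicate 3 of the control cells (0.30, adjusted p = 0.126) or replicate 2 of the null cells (0.42, adjusted p = 0.0715), and 1457823_at without replicate 2 of the control cells (0.36, adjusted p = 0.0587).

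In control cells the direction of the GH response of Ccn1 depended on the probe set. With GH, 1416039_x_at fell 1.99-fold (log2 difference -0.99 ± 0.10, adjusted p = 0.000203) and 1438133_a_at fell 1.88-fold (-0.91 ± 0.09, adjusted p = 0.000126). Over the same arrays 1442340_x_at rose 2.24-fold (1.16 ± 0.12, adjusted p = 0.00019) and 1457823_at rose 2.3-fold (1.20 ± 0.11, adjusted p = 6.72e-05). For each of the 4, the arrays with and without GH did not overlap. In diffSplice, adjusted over 25762 probe sets, the first pair deviated by -1.48 and -1.37 and the second by 1.39 and 1.45 (adjusted p from 2.24e-08 to 7.59e-08), where 0.543% of probe sets were called. With all 25762 probe sets tested, no such split was called in null cells, where 4.18% of them were. The 4 GH differences there were -0.27, -0.24, 0.25 and 0.32 with SEs of 0.09 to 0.12. The deviations in null cells had adjusted p from 0.0598 to 0.194 in diffSplice. With only probe sets above the first quartile in at least 1 group tested, 1457823_at passed there on all 8 arrays (0.41, adjusted p = 0.0489). Without either replicate of the control cells without GH, the deviations in null cells passed for 1416039_x_at (-0.38, adjusted p = 0.0446) and 1457823_at (0.41, adjusted p = 0.0314). The direction of the Ccn1 transcript's GH response in control cells is therefore not settled by these arrays, and which transcript part each probe set reads was not analysed here.

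**Figure D2:**
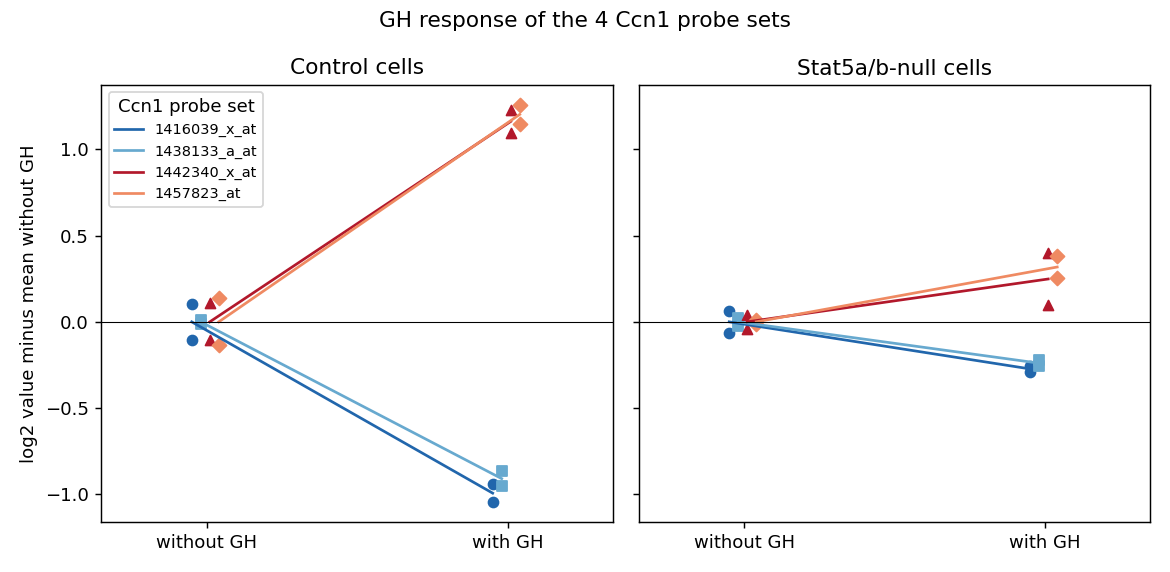
Log2 value of each Ccn1 probe set minus its own mean without GH, for control cells (left) and null cells (right); points are arrays and lines join means of 2 arrays. In control cells the 2 blue probe sets end at -0.99 and -0.91 and the 2 red ones at 1.16 and 1.20, and in null cells all 4 end between -0.27 and 0.32.

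Ccn2 encodes CTGF, a matrix-inducing protein and a standard readout of TGF-beta and YAP activity. Its 1 probe set read 14.25 and 14.37 in control cells, 13.40 and 13.45 in control cells with GH, 12.17 and 12.23 in null cells and 12.04 and 12.15 in null cells with GH. The groups ranked in that order without overlap, and the null groups lay close together. Ccn2 was 4.33-fold lower in null cells without GH (log2 difference -2.11 ± 0.09, adjusted p = 8.43e-09) and 2.51-fold lower with GH (-1.33 ± 0.09, adjusted p = 4.26e-07). GH lowered it 1.85-fold in control cells (-0.89 ± 0.09, adjusted p = 0.000227). In null cells the GH difference of -0.10 ± 0.09 did not pass the test (95% confidence interval -0.31 to 0.10, adjusted p = 0.571). The interaction, the GH effect in null minus that in control cells, was 0.79 ± 0.13 (adjusted p = 0.005).

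Ccn3 encodes NOV, a member that opposes Ccn2 in several fibrosis models. By probe set 1426852_x_at it read 10.44 and 10.59 in control cells, 10.63 and 10.56 with GH, 11.02 and 11.0015 in null cells and 11.22 and 11.21 in null cells with GH. All null arrays lay above all control arrays, by the smallest margin in the family, and the 2 control groups overlapped. It was 1.41-fold higher in null cells without GH (0.50 ± 0.09, adjusted p = 0.00114) and 1.53-fold higher with GH (0.62 ± 0.09, adjusted p = 0.000229). Probe set 1426851_a_at gave 0.46 ± 0.11 (adjusted p = 0.00623) and 0.60 ± 0.11 (adjusted p = 0.00111). Without replicate 2 of the control cells its difference without GH was 0.31 and missed the threshold (adjusted p = 0.0599). GH gave no called change of Ccn3: by 1426852_x_at the differences were 0.08 (95% confidence interval -0.12 to 0.29) in control and 0.20 (-0.0024 to 0.41) in null cells.

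Ccn4 encodes WISP1, which acts on fibroblast and osteoblast growth. Probe set 1448593_at read 13.39 and 13.38 in control cells, 13.39 and 13.45 with GH, 11.36 and 11.45 in null cells and 12.01 and 12.16 in null cells with GH. The 2 control groups overlapped, and the null arrays without GH were the lowest of all. Ccn4 was 3.94-fold lower in null cells without GH (-1.98 ± 0.10, adjusted p = 1.64e-08) and 2.52-fold lower with GH (-1.33 ± 0.10, adjusted p = 4.55e-07). In null cells GH raised it 1.60-fold (0.68 ± 0.10, adjusted p = 0.000743), while in control cells the difference was 0.03 ± 0.10 (95% confidence interval -0.18 to 0.24, adjusted p = 0.979). The second probe set, 1448594_at, carries the same source accession. It gave -1.78 and -1.21 between genotypes, 0.60 for GH in null cells and 0.04 for GH in control cells. The 2 were not called as differing from each other in any comparison (adjusted p from 0.276 to 1).

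Ccn5 encodes WISP2, which restrains growth and motility in smooth muscle and several other cell types. Its 1 probe set read 11.95 and 11.97 in control cells, 11.73 and 11.83 with GH, 9.04 and 9.16 in null cells and 8.77 and 8.97 in null cells with GH. Control and null arrays were separated by the widest gap in the family. Ccn5 was 7.25-fold lower in null cells without GH (-2.86 ± 0.10, adjusted p = 1.42e-09) and 7.53-fold lower with GH (-2.91 ± 0.10, adjusted p = 1.1e-09). Although the arrays with GH lay below those without it in either genotype, neither GH difference passed the test. They were -0.18 ± 0.10 in control cells (95% confidence interval -0.41 to 0.04, adjusted p = 0.684) and -0.24 ± 0.10 in null cells (-0.46 to -0.01, adjusted p = 0.19). The interaction was -0.05 ± 0.15 (adjusted p = 0.916), so a different GH response in the genotypes was not detected for Ccn5.

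**Figure D3:**
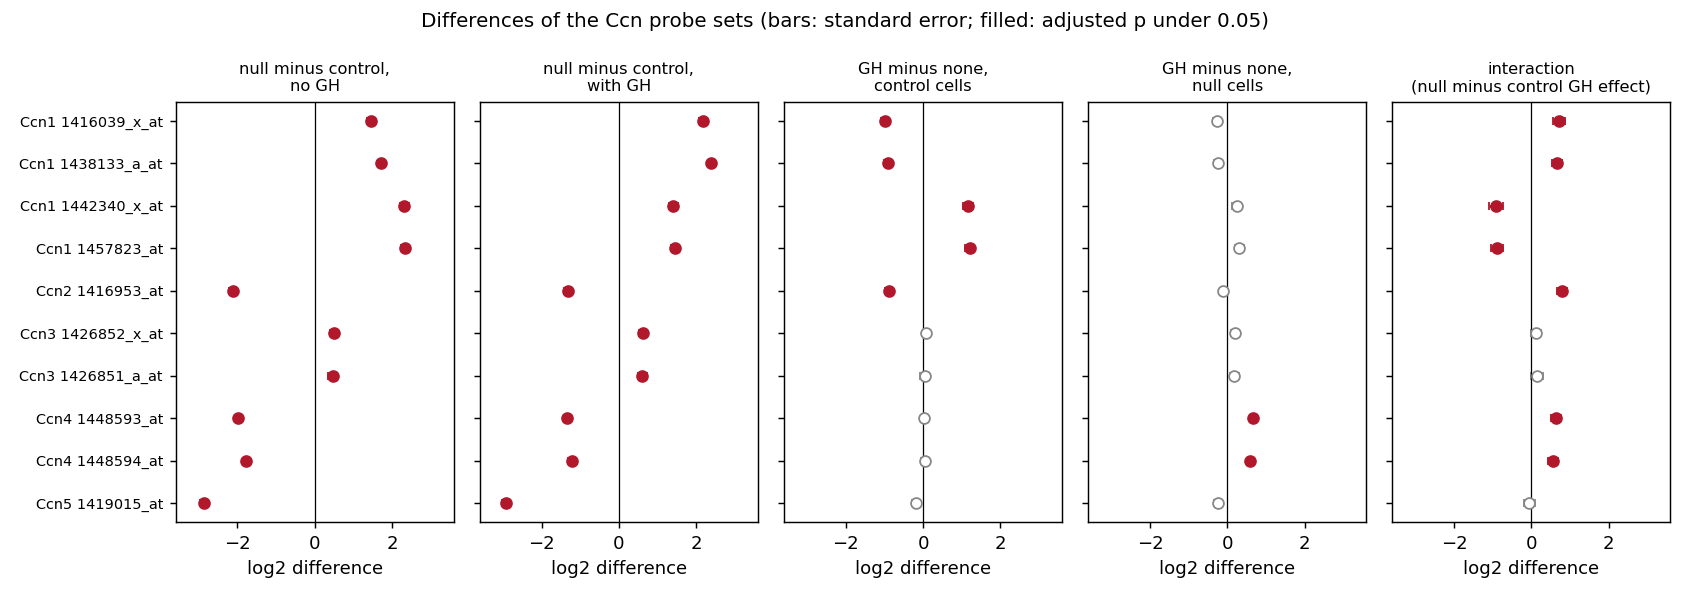
Log2 differences (horizontal axis, 0 marked) of the 10 Ccn probe sets in the 5 comparisons, with limma's standard error as bars that are hidden where smaller than the point; filled red points passed an adjusted p of 0.05. The genotype columns are filled throughout, with Ccn5 at -2.86 and -2.91, and the GH columns hold 5 and 2 filled points.

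Counted over probe sets, 6 were higher and 4 lower in null cells without GH, so 10 of 10 passed, where 38.6% of all 45037 probe sets did (19% higher and 19.6% lower). The same counts held with GH, where 37.3% of all probe sets passed (19.6% higher and 17.7% lower). GH in control cells changed 5 of 10, with 2 higher and 3 lower, where 1.79% of all probe sets passed (1.23% higher and 0.557% lower), and 4 of those 5 read Ccn1. GH in null cells raised 2 of 10, both of Ccn4, where 10.8% passed (7.37% higher and 3.46% lower). The interaction was called for 7 of 10, which were those of Ccn1, Ccn2 and Ccn4, where 5.48% passed (4.05% higher and 1.44% lower). It was positive for 5 and negative for 2. The deviation of a probe set from the others of its gene also passed in the interaction for all 4 of Ccn1, against 1.44% of probe sets tested in that way. Probe sets of 1 gene share their transcript, so these counts do not stand for independent genes. The genotype comparisons share no array with each other, but each shares its control and null arrays with the GH comparisons.

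The interaction was negative for the Ccn1 probe sets 1442340_x_at (-0.91 ± 0.17, adjusted p = 0.00865) and 1457823_at (-0.88 ± 0.16, adjusted p = 0.00634) and positive for 1416039_x_at (0.72 ± 0.15, adjusted p = 0.014) and 1438133_a_at (0.67 ± 0.13, adjusted p = 0.00947). In each case the GH response of the probe set was smaller in null cells. For Ccn4 it was positive, at 0.64 ± 0.14 for 1448593_at (adjusted p = 0.0167) and 0.56 ± 0.13 for 1448594_at (adjusted p = 0.0251), with the rise in null cells. The call was lost for 1416039_x_at without replicate 3 of the control cells with GH (0.67, adjusted p = 0.0546), replicate 2 of the null cells (0.65, adjusted p = 0.0641) or replicate 2 or 3 of the null cells with GH (0.70 and 0.74, adjusted p = 0.0723 and adjusted p = 0.0566). For 1442340_x_at it was lost without replicate 2 of the null cells with GH (-0.77, adjusted p = 0.0525). For 1448593_at it was lost without replicate 2 of the control cells with GH (0.61, adjusted p = 0.0663), replicate 2 of the null cells (0.60, adjusted p = 0.0676) or replicate 3 of the null cells with GH (0.56, adjusted p = 0.082). For 1448594_at it was lost without any array other than replicate 2 of the control cells without GH (0.53 to 0.60, adjusted p from 0.0533 to 0.0964).

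The genes whose pattern came closest to each member were found by the root mean square (RMS) difference over the 8 arrays, after each gene was centred on its own mean. Ccn3 was left out because its group means spanned 0.70, less than the 1 required. Ccn1, by 1416039_x_at, was closest to the transcriptional repressor gene Bcl6 (RMS difference 0.17), the receptor signalling inhibitor gene Spry2 (0.19) and the oxytocin receptor gene Oxtr (0.26), which lay below the first quartile in control cells. Ccn2 was closest to Adm, which encodes the vasodilator peptide adrenomedullin (0.12), Tmcc3 (0.17) and the myeloid transcription factor gene Irf8 (0.17), which lay below the first quartile in null cells. Ccn4 was closest to the actin-binding gene Enc1 (0.07), the orphan receptor gene Gpr176 (0.08) and the homeobox gene En1 (0.09). Enc1 read 11.61, 11.48, 9.51 and 10.14 in control, control with GH, null and null with GH (group means), so it too was higher with GH in null cells. Ccn5 was closest to the natriuretic peptide clearance receptor gene Npr3 (0.09), the homeobox gene Irx5 (0.09) and Clec4n, a lectin gene of macrophages (0.10), which reached 5.69, below the first quartile, in null cells with GH. These distances are descriptions of 8 arrays.

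Genes upstream of and beside the CCN family were set against the same background, each by its probe set with the highest mean. Without GH, 23.1% of all 18193 genes were higher and 21.6% lower in null cells by that count. Of 24 YAP and TEAD target genes, 12 were lower and 5 higher in null cells without GH, with a median log2 difference of -0.32 (0.03 over all genes). Among them Ddah1, which breaks down an inhibitor of nitric oxide synthase, was lower (-2.15 ± 0.11) and Igfbp3, an IGF carrier, was higher (1.74 ± 0.09). Of 21 SRF and MRTF components and targets, 14 were lower and 2 higher (median -0.63), with Filip1l (-2.17 ± 0.09) and the smooth muscle gene Cnn1 (-2.11 ± 0.11) having the lowest p. The 2 that were higher numbered 0 or 1 without any 1 of the 4 arrays compared. Of 18 genes of the TGF-beta list, 10 were lower and 4 higher (median -0.33). Its 2 genes with the lowest p were higher, namely the co-receptor gene Tgfbr3 (2.42 ± 0.10) and the latent TGF-beta binding gene Ltbp1 (1.69 ± 0.13). Of 20 Hippo pathway components, 7 were lower and 4 higher (median -0.23), with the TEAD cofactor gene Vgll3 (-1.08 ± 0.10) and Wwc2 (-0.89 ± 0.09) lower. Without replicate 2 of the null cells, 4 of the 20 were lower.

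Receptors and other matricellular genes went both ways without GH. Of 24 CCN receptors and binding partners, 9 were lower and 5 higher (median 0.02). The proteoglycan gene Dcn, whose product binds CCN2, was higher (3.57 ± 0.09), and Itgb2, the beta chain of the leukocyte integrin that binds CCN1 and CCN2, was lower (-1.72 ± 0.09), as the leukocyte markers were. Of 14 other matricellular genes, 5 were higher and 3 lower (median -0.05), with Smoc1 (-3.12 ± 0.10) lower and Smoc2 (2.84 ± 0.11) higher. Of 15 WNT and beta-catenin genes, 4 were higher and 2 lower (median 0.07), among them the R-spondin receptor gene Lgr5 (-2.11 ± 0.14) and the beta-catenin antagonist gene Axin1 (0.86 ± 0.12). Of 23 early genes induced by serum, 10 were higher and 6 lower (median 0.15). Egr1, a zinc finger transcription factor gene, was higher (2.67 ± 0.11), as Ccn1 was, and the growth-restraining gene Btg2 was lower (-1.996 ± 0.10).

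With GH present, 21.1% of all genes were higher and 21.9% lower in null cells. Of the YAP and TEAD targets, 11 were lower and 8 higher, and of the SRF and MRTF list, 14 were lower and 1 higher. The TGF-beta list had 8 lower and 7 higher, the Hippo list 5 and 6, CCN receptors and partners 9 and 7, other matricellular genes 3 and 5, the WNT list 4 and 3 and early serum genes 4 and 12. Genes with the lowest p not already named were Amot (1.07 ± 0.12) and Wwtr1, which encodes TAZ (0.97 ± 0.11), among Hippo components, both higher in null cells. Itgam, the alpha chain that pairs with Itgb2, was lower (adjusted p = 3.17e-07), from 6.52 in control cells with GH to 4.44, below the first quartile. Leaving out 1 array moved 4 of these counts by more than 1.5 times. Hippo genes that were lower numbered 3 without replicate 2 of the control cells with GH or replicate 3 of the null cells with GH. Without replicate 2 of the null cells with GH, 4 TGF-beta genes were higher and 2 WNT genes lower. Without either null array without GH, 2 SRF and MRTF genes were higher.

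GH in control cells, which lowered Ccn2, gave few calls among the listed genes apart from the early serum genes. Over all genes 1.5% rose and 0.698% fell. Of 24 YAP and TEAD targets, Gadd45b rose (0.95 ± 0.10, adjusted p = 0.000198) and Ankrd1 fell (-0.73 ± 0.10, adjusted p = 0.00148), and 2 fell without replicate 2 of the control cells without GH. Of 21 SRF and MRTF genes, Srf itself fell (-0.50 ± 0.10, adjusted p = 0.0256) and no other passed. The Srf call was lost without any 1 of the 4 control arrays (-0.45 to -0.55, adjusted p from 0.0908 to 0.196). No Hippo, TGF-beta, other matricellular or WNT gene passed in limma's test. At an unadjusted p under 0.05 these lists had 3 of 20, 4 of 18, 2 of 14 and 3 of 15, where 9.33% of all genes did. By that count the YAP and TEAD list had 3 higher and 5 lower of 24, called genes included. The SRF and MRTF list had 0 higher and 3 lower of 21, and CCN receptors and partners 3 higher and 1 lower of 24. Of 24 CCN receptors and partners Bmp4, a bone morphogenetic protein gene, fell (-0.75 ± 0.10, adjusted p = 0.00219). Of 23 early serum genes 4 rose and 4 fell. Zfp36, whose product destabilises AU-rich transcripts (1.51 ± 0.10), and Ier3 (1.43 ± 0.09) rose. Without replicate 2 of the control cells with GH, 2 early genes fell.

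In null cells 4.84% of all genes rose and 5.24% fell with GH. Early serum genes moved in both directions, with 9 higher and 8 lower of 23, among them Ier3 (1.96 ± 0.09) and the nuclear receptor gene Nr4a1 (-1.48 ± 0.10). Of the YAP and TEAD targets 6 rose and none fell, including the kinase gene Nuak2 (0.77 ± 0.09) and Gadd45b (0.59 ± 0.10). Of 18 TGF-beta genes 5 rose and none fell, including Tgif1 (0.81 ± 0.09) and Skil (0.51 ± 0.10), a pair of SMAD co-repressor genes. Of 24 CCN receptors and partners 6 rose and 1 fell, including the heparan sulfate proteoglycan gene Sdc4 (0.56 ± 0.09) and the endocytic receptor gene Lrp1 (0.61 ± 0.11). The Hippo list had 2 higher and 1 lower, the WNT list 1 and 1, and the SRF and MRTF list 1 and 0. No other matricellular gene passed in limma's test, and 3 of 14 had an unadjusted p under 0.05, where 24.6% of all genes did. These counts were sensitive to single arrays. Without replicate 2 of the null cells or replicate 2 of the null cells with GH, 2 YAP and TEAD targets rose and 5 early genes fell. TGF-beta genes that rose numbered 1 without replicate 2 of the null cells and 2 without either array of null cells with GH, and receptors and partners 3 without replicate 2 of the null cells with GH. The Hippo, WNT and SRF and MRTF counts of 1 or 2 each dropped by 1 without replicate 2 of the null cells or replicate 2 or 3 of the null cells with GH. Those that fell were also lost without either array of the control cells with GH or replicate 3 of the null cells. The 1 receptor gene that fell was lost without replicate 2 of the null cells with GH, and other matricellular genes that rose numbered 2 without replicate 3 of the null cells and 1 without replicate 3 of the null cells with GH.

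The interaction was positive for 2.49% and negative for 2.06% of all genes. Early serum genes had 6 positive and 3 negative, led by Fosl1 (1.65 ± 0.15) and Maff (1.32 ± 0.15), a pair of AP-1 family genes. YAP and TEAD targets had 2 positive, Ankrd1 (0.95 ± 0.14) and Crim1 (0.74 ± 0.16), and the Hippo list 2 positive, Frmd6 (0.66 ± 0.13) and Map4k4 (0.60 ± 0.16), beside 1 negative. Srf (0.64 ± 0.14) and Tgif1 (0.54 ± 0.13) were the 1 called gene of the SRF and MRTF and of the TGF-beta list. CCN receptors and partners had Itgb2 (0.49 ± 0.13) among 2 positive and Notch1 (-0.60 ± 0.14) as the 1 negative. Fosl1, Maff and Ankrd1 passed with each of the 8 arrays left out in turn, and the other genes named in this paragraph did not. Itgb2 was lost without any 1 array (0.45 to 0.53, adjusted p from 0.0705 to 0.143). Tgif1 was lost without any array but replicate 3 of the control cells without GH (0.51 to 0.56, adjusted p from 0.0638 to 0.105), and Map4k4 without any but replicate 2 of those cells (0.47 to 0.67, adjusted p from 0.062 to 0.155). Notch1 was lost without any array but replicate 2 of the control or null cells without GH (-0.66 to -0.51, adjusted p from 0.0629 to 0.135). Srf was lost without replicate 3 of the control cells with GH, either null array without GH or replicate 3 of the null cells with GH (0.53 to 0.65, adjusted p from 0.0672 to 0.0977). Frmd6 (0.61 to 0.68, adjusted p from 0.0534 to 0.0647) and Crim1 (0.64 to 0.78, adjusted p from 0.0541 to 0.0928) were lost without replicate 2 of the control cells with GH, replicate 2 of the null cells or either array of the null cells with GH, and Crim1 also without replicate 3 of the control cells without GH.

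The interaction counts moved accordingly with 1 array left out. The SRF and MRTF count and the TGF-beta count of 1 became 0, and the negative Hippo gene was lost without any 1 of the 8 arrays. Positive Hippo genes numbered 0 to 2, positive receptors and partners 1 to 2 and negative ones 0 to 1. Early serum genes numbered 4 to 6 positive and 1 to 2 negative, and positive YAP and TEAD targets 1 to 4, with 3 without replicate 3 of the control cells with GH and 4 without replicate 2 of the control cells without GH.

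**Figure D4:**
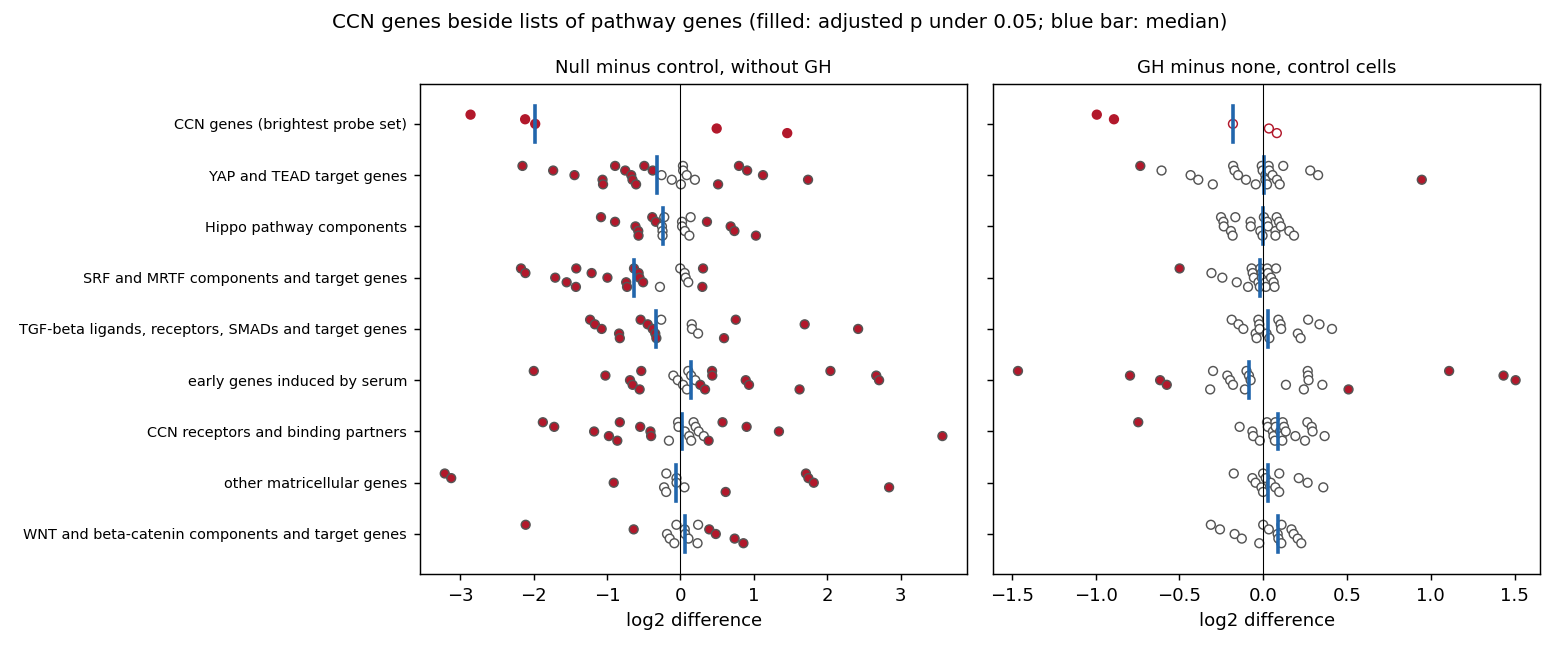
Log2 difference (horizontal axis) of the 5 CCN genes and of each gene of 8 pathway lists, for null minus control cells without GH (left) and GH minus none in control cells (right); points are genes by their probe set with the highest mean, filled where the adjusted p was under 0.05, and blue bars are medians. On the left the SRF and MRTF list has its median at -0.63 and the other matricellular genes at -0.05, and on the right most points of every list are open.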

How the data were processed

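RNA of 8 samples in 4 groups was measured on Affymetrix mouse arrays. The deposited log2 values come from Partek 6.10.0511 and the robust multi-array average, per the submitters' processing notes; no further settings or build were found there, and probe sets carry no coordinates. The values have no detection call, and the number of arrays limits the precision (median residual SD 0.104 on the log2 scale). Groups and replicate numbers came from the titles; for 1 null array without GH the source label gives 3 where the title gives 2.

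Of 45101 probe sets, 64 controls were left out. The annotation gave 1 gene for 34945, several for 932 and none for 9160. Symbols were updated through Entrez identifiers for 34741. A gene stands in lists by its probe set with the highest mean over all arrays. Listed genes with no such probe set were not analysed here (6 of 204 entries).

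A model with a separate mean for each group was applied to all 45037 probe sets (limma 3.58.1 under R 4.3.3), with 4 residual and 7.46 prior degrees of freedom, in 5 comparisons. Calls used a Benjamini-Hochberg adjusted p under 0.05 over all probe sets, and errors are limma's SE. Probe sets of a gene were compared with diffSplice. Both were tested on simulated data in which probe sets varied independently, so shared variation among probe sets of a gene was not covered. Figures used Python 3.11.15 and matplotlib 3.10.9. From each list the text names, in each comparison, up to 2 genes with the lowest p among those called and not dim in both groups, plus the 3 genes closest to each member. Members, lists and rules were chosen with earlier results of these data known. Alternatives covered scaling, filtering, 1 probe set a gene, variance moderation, a replicate block, the arrays fitted, a minimum change and leaving out each array.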

Additional observations from a re-analysis of the deposited data

Results flagged for a closer look

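The GH response differed between the genotypes, by limma's interaction term (null minus control), for 7 of the 10 Ccn probe sets. Over all probe sets 5.48% passed. The values for Ccn1 were 0.72 (1416039_x_at), 0.67 (1438133_a_at), -0.91 (1442340_x_at) and -0.88 (1457823_at), for Ccn2 0.79, and for Ccn4 0.64 (1448593_at) and 0.56 (1448594_at). With each array left out in turn, the call was lost for 1416039_x_at in 4 of 8 cases and for 1442340_x_at in 1. For 1448593_at it was lost in 3 cases and for 1448594_at in 7. Among the genes closest to a member, the interaction passed for Bcl6 (1.01), Spry2 (1.16), Tmcc3 (0.91), Enc1 (0.75) and Gpr176 (0.81). These genes were picked for their likeness to a member over the same arrays, so their interactions are not separate results. Their calls were not checked with arrays left out.

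Among list genes named in the text, or picked by the same rule, YAP and TEAD targets with an interaction were Ankrd1 (0.95) and Crim1 (0.74), the Hippo components Frmd6 (0.66) and Map4k4 (0.60), and Srf (0.64) and Tgif1 (0.54). Early serum genes were Fosl1 (1.65), Maff (1.32), Ier3 (0.53) and Zfp36 (-0.54), and receptor genes were Itgb2 (0.49) and Notch1 (-0.60). With 1 array left out, the interactions of Crim1, Frmd6, Map4k4, Srf, Tgif1, Itgb2 and Notch1 lost their calls for 4 to 8 of the 8 arrays. Those of Ier3 and Zfp36 were near the threshold in limma's test (adjusted p = 0.0414 and adjusted p = 0.0427). They were not checked with arrays left out. For Ankrd1, as for Ccn2, GH lowered the level in control cells (-0.73) and the difference in null cells was 0.22.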

How the results depend on the processing

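Under the alternatives run, no Ccn difference that had passed changed direction. Of the differences of the Ccn probe sets, 730 values over all alternatives kept their side of the threshold, 33 lost the call and 2 gained it. With a minimum change of 1.5-fold, 8 of 10 passed in either genotype comparison, 1 of 10 for GH in control cells, and by limma's treat no probe set for the GH response of null cells or the interaction (2 and 7 without that minimum). The calls lost there were those of GH in control cells for Ccn1 (-0.99, -0.91 and 1.16) and Ccn2 (-0.89). For GH in null cells they were those of Ccn4 (0.68 and 0.60), for Ccn3 between genotypes 0.50 and 0.46 without and 0.62 and 0.60 with GH, and for the interaction Ccn1 (0.72, 0.67, -0.91 and -0.88), Ccn2 (0.79) and Ccn4 (0.64 and 0.56). This alternative tests against a larger change by construction. With a variance trend, GH in null cells passed for Ccn1 1416039_x_at (-0.27, adjusted p = 0.0469) and 1438133_a_at (-0.24, adjusted p = 0.0416); the cause was not tested. Probe sets called numbered 17383, 16797, 807, 4877 and 2469 in the 5 comparisons, in the order null against control without and with GH, GH in control cells, GH in null cells and interaction. They numbered 8640, 8247, 476, 2130 and 938 with 1 probe set a gene, where fewer were tested, and 4557, 4353, 161, 431 and 212 with the minimum change. With the arrays of the 2 groups compared alone, 448 were called for GH in control cells. With 1 array left out the counts ran from 14596 to 17049, 13314 to 17413, 490 to 699, 2366 to 5345 and 1235 to 2244. Probe sets that differed from the others of their gene ran from 4793 to 6504, 4026 to 6673, 84 to 120, 403 to 1266 and 133 to 331. With a variance of its own for each probe set, an alternative chosen after seeing the data, 82 differed in this way for GH in control cells and 146 for the interaction, where Ccn1 1442340_x_at lost its call (-1.08, adjusted p = 0.0556). With 1 array left out, the interaction ran from 0.61 to 0.83 for Ccn1 1416039_x_at and from -1.06 to -0.77 for 1442340_x_at, from 0.56 to 0.72 for Ccn4 1448593_at and from 0.53 to 0.60 for 1448594_at, and Ccn3 1426851_a_at without GH from 0.31 to 0.61. Same-numbered arrays did not deviate together over all probe sets (correlations from -0.19 to 0.06 over 6 pairs of groups). Whether the numbers pair the samples is not stated in the labels, and this measure cannot settle it for single genes. With the replicate block the counts were 16776, 16192, 711, 4284 and 2100, and the block changed no Ccn call. With 2 arrays a group, the SE of a Ccn difference was 0.09 to 0.12, which limits what could pass for the GH responses of Ccn3 and Ccn5.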
